A study of Oryza sativa with 2 samples.

Results

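The heterochromatic short arm of chromosome 4 of rice was taken as the loci of that chromosome whose identifiers hold a number from 1000 to 18000. Ranges of locus numbers here include their first number and not their last. A rice locus identifier names the chromosome and then a number that rises along it, so membership follows from the identifier and not from a measured value. The range itself was chosen with earlier results of these data known. The rule leaves out 11 locus numbers of the range. The remaining 646 members were compared with the 2678 loci of chromosome 4 numbered 18000 and above, out of 38511 loci listed in all. Heterochromatin itself was not measured, and the position of the centromere was not read from a genome, so "short arm" here stands for the range of numbers.

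Transcript levels came from 2 RNA-seq libraries of polyadenylated RNA from wild-type Nipponbare, a japonica cultivar, in a study of adenine methylation in rice DNA. Both libraries, numbered 1 and 2, were made from whole seedlings 3 weeks old that grew in nutrient solution in short days, with no other genotype or treatment, and they form 1 group. Nothing in the labels says that they came from separate plants, and their differences may be technical. The unit is FPKM, in which fragments are scaled by transcript length and library depth, and the number of fragments behind it is unknown. The tissue was not checked against marker genes, because no identifier is paired with a gene name: the supplied reference table matched 0 of the 646 members. For the same reason no function and no sequence is given for a locus.

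Heterochromatin is the part of the genome that stays densely packed through the cell cycle. In plants it is rich in transposons and other repeats, which are kept silent by DNA cytosine methylation and repressive histone marks, and ordinary genes are sparse within it. In rice, microscopy of meiotic chromosomes has shown heterochromatin over most of the short arm of chromosome 4, while the distal long arm is euchromatic, with many active genes.

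Most loci of the arm gave little or no transcript signal in the seedlings. A locus whose 2 values averaged 1 FPKM or more is called expressed here, and 194 of 646 members were, or 30.0%. Among all listed loci the same call was made for 49.8%, and among the loci of chromosome 4 from 18000 upward for 1449 of 2678, or 54.1%. In library 1 alone, 30.8% of members and 54.4% of the rest reached 1 FPKM, and in library 2 alone 28.5% and 53.5%. The gap was -23.6 percentage points in library 1 and -25.0 in library 2, a mean of -24.3 ± 0.98 (SD, n = 2). It was thus many times the spread between libraries, although that spread does not reflect which loci were compared. A two-sided exact permutation test that flips the sign of each library gave p = 0.5, the smallest that 2 libraries allow, so the gap is a description. In whole seedlings, fewer cells that transcribe a locus and less RNA per cell cannot be told apart.

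The deficit lay in loci with no signal at all. Members listed at 0 in both libraries numbered 326, or 50.5%, against 26.1% in the rest of the chromosome and 31.7% of all loci. Whether such a 0 is a failed estimate was not tested. Loci above 0 but under 1 FPKM made up 19.5% of the arm and 19.8% of the rest, nearly the same share. At the upper end, 70 members (10.8%) lay between 10 and 100 FPKM against 24.2% of the rest, and 7 members (1.1%) reached 100 FPKM against 85 loci of the rest (3.2%).

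Members that were expressed also stood at lower levels. Their median was 6.62 FPKM in library 1 and 6.78 FPKM in library 2, or 6.70 ± 0.11 (SD, n = 2). For the expressed loci of the rest it was 9.92 and 10.2 FPKM, or 10.1 ± 0.19 (SD, n = 2). The arm held 19.4% of the loci of chromosome 4 and 7.1% of its total FPKM in library 1, against 6.9% in library 2. Per locus, the mean level was 5.28 ± 0.17 FPKM in the arm and 17.0 ± 0.15 FPKM in the rest (SD, n = 2). On the scale of log2(FPKM + 1), the mean level of arm loci was below that of the rest by 1.02 in library 1 and by 1.05 in library 2.

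The low level did not cover the arm evenly. Taken in windows of 1000 locus numbers, the share of expressed loci ranged from 8.3% to 52.4% over 17 windows, with a median of 25.0%. The highest share was in the window at 15000, described below, and the first 2 windows followed at 51.8% and 50.0%. Of the 112 loci numbered 1000 to 3000, 57 were expressed (50.9% ± 1.3 over libraries, SD, n = 2), close to the 49.8% of all loci. Of the 534 loci numbered 3000 to 18000, 137 were expressed, with 26.4% in library 1 and 24.0% in library 2. The third window had 22.2%. Expressed loci of the first 2 windows had a median of 11.2 ± 0.89 FPKM, against 5.80 ± 0.25 FPKM (SD, n = 2) for those numbered 3000 and above. These borders were drawn after the values were seen, so the split is a description. The first 112 loci thus did not share the low expression of the other members, and whether they are heterochromatic was not measured.

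No step in expression marked locus number 18000. The last 2 members below it were LOC_Os04g17700, at 19.9 FPKM in library 1 and 17.6 FPKM in library 2, and LOC_Os04g17854, listed at 0 in both. The first 2 loci above it were LOC_Os04g18010, at 11.6 and 15.6 FPKM, and LOC_Os04g18030, at 1.44 and 2.20 FPKM. Beyond the border the low level went on: of the 550 loci numbered 18000 to 31000, 155 were expressed (28.2%), and 52.5% were listed at 0 in both libraries. Against these loci alone the arm was not lower but 1.85 percentage points higher. Without its first 2 windows the arm was lower, at 25.7%. The mean level per locus was lower over the whole arm, at 5.28 FPKM against 7.16 FPKM. On the scale of log2(FPKM + 1) that mean was about equal, at 1.02 in the arm and 1.01 in the loci numbered 18000 to 31000. The step came at 31000, where the share went from 25.4% in the window starting at 30000 to 58.2% in the next. Of the 2128 loci from 31000 upward, 1294 were expressed (60.8%), and 19.2% were at 0 in both libraries. Read by expression, the first 2 windows of the range 1000 to 18000 thus differed from most of its others. The low part, numbered 3000 to 31000, extended well past the end of that range. Of its 1084 loci 292 were expressed, 26.9%, with 26.9% in library 1 and 25.8% in library 2. It was not even, as its windows at 14000, 15000 and 20000 had 42.5%, 52.4% and 43.9%. Above 31000, the windows at 34000 and 50000 had 40.0% and 38.0%. The border at 31000 was also drawn after the values were seen.

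**Figure D1:**
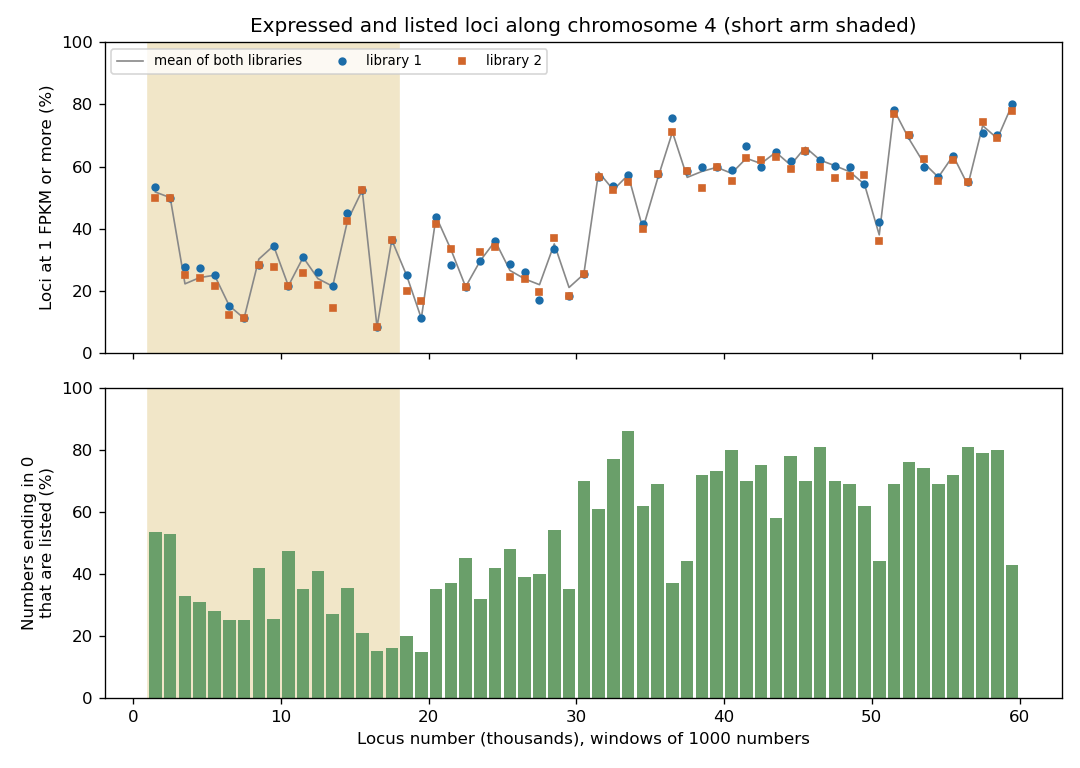
Upper panel: percent of loci at 1 FPKM or more in each window of 1000 locus numbers along chromosome 4, in library 1 (circles), library 2 (squares) and on the mean FPKM of both (line). Lower panel: percent of locus numbers ending in 0 that are listed. The shaded arm opens near 50.0%, and the other windows up to 31000 are lower, except that the window at 15000 reaches 52.4%.

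**Figure D2:**
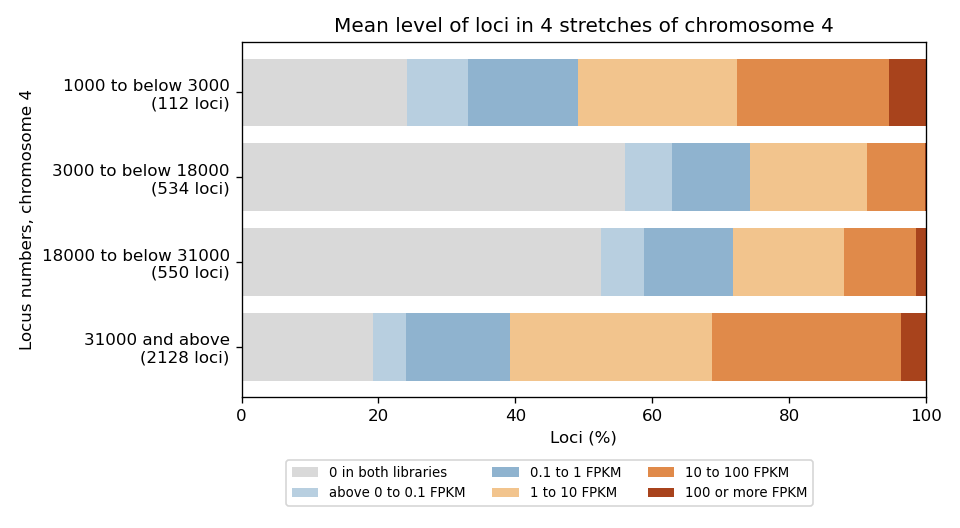
Percent of loci by mean FPKM over both libraries in 4 stretches of chromosome 4. Loci at 0 in both libraries make up 56.0% and 52.5% of the stretches 3000 to 18000 and 18000 to 31000, and 24.1% and 19.2% of the outer stretches.

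Within the low part of the arm, the stretch from 14000 to 16000, picked for its values, stood higher. There 28 of 61 loci were expressed, 47.5% in library 1 and 45.9% in library 2. From 3000 to 14000 it was 97 of 403, or 24.8% and 21.8%. The levels in the stretch were low all the same, with a median of 4.83 ± 0.05 FPKM (SD, n = 2) among its expressed loci. That was near the median from 3000 to 14000, at 5.12 ± 0.72 FPKM (SD, n = 2). Its highest locus was LOC_Os04g15690, at 29.2 FPKM in library 1 and 14.9 FPKM in library 2. In the window of numbers 14000 to 15000 the highest was LOC_Os04g14510, at 13.0 and 14.3 FPKM. Many of its loci were expressed, then, but none strongly.

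The windows with the fewest expressed loci were those starting at 16000 and at 7000. In the former 4 of 48 loci were expressed (8.3%) and in the latter 3 of 27 (11.1%), with the same counts in each library. The rule leaves 2 locus numbers out of the former and 0 out of the latter, so their order holds only for the loci used here. The highest locus of the window at 7000 was LOC_Os04g07830, at 3.30 FPKM in library 1 and 2.86 FPKM in library 2, the lowest such maximum of the 17 windows.

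A run of zeros with strong single loci in it lay near the end of the arm. The longest run of consecutive members at 0 in both libraries counted 17 loci, from LOC_Os04g16230 to LOC_Os04g16764, against 11 for the longest in the rest of the chromosome. Loci at 0 in both libraries were also more frequent in the arm (50.5% against 26.1%), and runs were not compared at an equal share. Runs are counted over the loci used, and 2 of the left-out numbers lie inside the run of 17. It was followed by LOC_Os04g16770, the highest locus of its window, at 49.1 FPKM in library 1 and 68.9 FPKM in library 2, and then by 8 more loci at 0. From 16670, which follows the largest step between the numbers used in that window, through 16980, its last locus, 36 of 41 loci were at 0 in both libraries. The exceptions were LOC_Os04g16770, LOC_Os04g16830 at 0.72 and 0.82 FPKM, LOC_Os04g16872 at 29.1 and 32.8 FPKM, LOC_Os04g16882 at 48.3 and 65.5 FPKM, and LOC_Os04g16970 at 23.4 and 14.6 FPKM. The last 4 loci and the bounds were picked after their values were seen. Of the 5, LOC_Os04g16970 was higher in library 1 and the others were higher in library 2. The identifiers of the stretch differed too, as 32 of its 41 numbers did not end in 0, whereas 14.7% of all members' numbers did not.

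**Figure D3:**
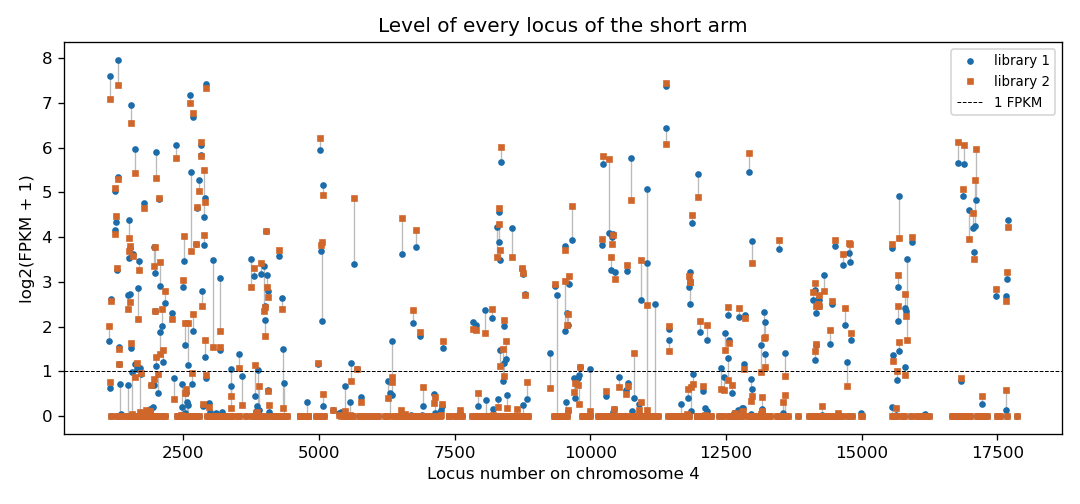
Level of every one of the 646 members, as log2(FPKM + 1), against locus number, with library 1 as circles, library 2 as squares and a grey line joining the values of 1 locus. Points above 6.5 are gathered below number 3000, apart from 1 locus near 11400.

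The highest loci sat mostly at the start of the arm. Of the 7 members at 100 FPKM or more, 6 were numbered below 3000. All 7 together held 32.8% of the FPKM total of the arm in library 1 and 28.8% in library 2. The 112 loci below 3000, 17.3% of the members, held 52.3% and 47.2% of that total. The top locus of the arm, LOC_Os04g01300, was far from the top of the chromosome, where 35 loci numbered 18000 and above had a higher mean.

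LOC_Os04g01300 stood at 246 FPKM in library 1 and 167 FPKM in library 2 (207 ± 56, SD, n = 2 here and below). LOC_Os04g01140 had 194 and 134 FPKM (164 ± 42). LOC_Os04g01540 had 122 and 92.1 FPKM (107 ± 21). These 3 loci, the only ones of the arm's 12 highest that lie in its first window, were all higher in library 1, by 1.47-fold, 1.44-fold and 1.33-fold. The total over the window was 896 FPKM in library 1 against 696 FPKM in library 2. Of its 29 expressed loci, 18 were higher in library 1, against 88 of 194 in the arm and 9044 of 19187 over all loci. This difference was not tested. LOC_Os04g01300 lay above LOC_Os04g01140 in both libraries, but their means differed by less than the SD of the former.

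In the second window the total was closer between libraries, at 929 FPKM in library 1 and 877 FPKM in library 2, and so were the highest loci. LOC_Os04g02910 reached 170 FPKM in library 1 against 159 FPKM in library 2 (165 ± 8.3). LOC_Os04g02620 had 144 and 127 FPKM (136 ± 13). LOC_Os04g02670 had 101 and 108 FPKM (104 ± 4.4). The first of these lay above the other 2 in both libraries. LOC_Os04g02820 followed at 66.0 and 68.3 FPKM (67.2 ± 1.6), and LOC_Os04g02354 at 65.6 and 53.7 FPKM (59.6 ± 8.4). Not every locus was closer there. The 2 expressed loci below 3000 that were 2-fold apart, LOC_Os04g02640 (log2 ratio -1.77) and LOC_Os04g02880 (log2 ratio 1.04), both lay in this window.

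Outside the first 2 windows, 4 loci belonged to the arm's 12 highest. LOC_Os04g11400, at 165 FPKM in library 1 and 174 FPKM in library 2 (170 ± 6.1), was the only one above 100 FPKM and ranked second in the arm. LOC_Os04g11390, the number next to it, had 85.5 and 66.3 FPKM (75.9 ± 14), so 2 high loci stood side by side there. LOC_Os04g05010 had 60.6 and 73.7 FPKM (67.1 ± 9.3). LOC_Os04g16770, described above, completed the 12, which together held 42.1% and 38.8% of the arm's FPKM.

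Elsewhere the highest locus of a window was modest. It was LOC_Os04g08350 at 50.1 FPKM in library 1 and 63.3 FPKM in library 2, LOC_Os04g10240 at 48.3 and 55.3 FPKM, and LOC_Os04g12920 at 43.0 and 58.2 FPKM. In the windows at 3000, 4000 and 13000 it was LOC_Os04g03920 at 8.005 and 9.76 FPKM, LOC_Os04g04020 at 16.6 and 16.7 FPKM, and LOC_Os04g13470 at 12.2 and 14.4 FPKM. In those at 6000 and 9000 it was LOC_Os04g06520 at 11.3 and 20.4 FPKM and LOC_Os04g09654 at 14.4 and 24.9 FPKM. All 8 were higher in library 2, although only the last 2 by more than 1.5-fold. The highest loci of the windows at 7000 and 15000, given above, were higher in library 1, the latter by 1.96-fold.

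Expressed loci of the arm tended to adjoin one another. After an expressed member the next member in order was expressed in 84 of 194 cases (43.3%), and after one that was not, in 109 of 451 (24.2%). In the rest of the chromosome these shares were 61.5% and 45.4%. From 3000 to 18000 they were 35.8% and 22.2%, so part of the contrast over the whole arm comes from the first 2 windows. The longest run of expressed members was 7 loci, from LOC_Os04g01480 at 5.57 FPKM in library 1 and 4.23 FPKM in library 2 to LOC_Os04g01540. Its loci summed to 178 and 143 FPKM. The longest such run in the rest of the chromosome was 13 loci, but that stretch holds over 4 times as many loci. Runs that were not expressed reached 23 members in the arm, from 16020 to 16764, against 16 in the rest. The share of expressed loci differed too, at 30.0% in the arm and 54.1% in the rest.

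Many identifiers of the range are not listed in the files, and loci without a listed value were not analysed here. Rice locus numbers mostly step by 10, so the numbers ending in 0 give a count of possible positions. Of the 1690 such numbers in the arm, after those left out by the rule, 551 were listed (32.6%), against 59.4% of the 4200 from 18000 to 60000. The share was 53.3% from 1000 to 3000, 29.8% from 3000 to 18000, 39.4% from 18000 to 31000 and 68.3% from 31000 to 60000. Stretches with few listed loci were thus also those where few of the listed loci were expressed. Inside a stretch that relation was weak. Over the 28 windows from 3000 to 31000, Pearson's r between the share listed and the share expressed was 0.14 and Spearman's rho was 0.20, as a description of windows that share both libraries. The window at 15000 had 21.0% of its numbers listed and 52.4% of its 21 loci expressed, while the window at 30000 had 70.0% listed and 25.4% of its 71 loci expressed. The step in listed numbers lay 1 window before the step in expression.

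Among the 12 chromosomes, the same range of numbers was least expressed on chromosome 4. The share was 33.6% on chromosome 10 and 34.4% on chromosome 9, and 41.9% to 66.5% on the other 9. In library 1, chromosome 4 stood at 30.8%, chromosome 10 at 32.5% and chromosome 9 at 34.7%, and in library 2 at 28.5%, 32.5% and 34.4%. Chromosome 4 was thus lowest in both libraries, by a small margin over chromosome 10 in library 1. The SD of its own value between libraries was 1.6. That spread does not measure the uncertainty of a difference between chromosomes, and the order was not tested. The 11 left-out loci bound the share of chromosome 4 between 29.5% and 31.2%. It also had the fewest listed numbers, 32.6% against 34.3% on chromosome 10 and 40.9% on chromosome 9. The gap between the range and the loci above it was -24.1 percentage points on chromosome 4, -19.0 on chromosome 9 and -14.7 on chromosome 10, while on the others it ran from -8.7 to 11.5. The levels of expressed loci gave another order, with a median of 6.88 FPKM on chromosome 4, 6.34 on chromosome 10, 6.81 on chromosome 11 and 9.90 on chromosome 9. Equal ranges of numbers do not cover equal parts of chromosomes that differ in length.

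**Figure D4:**
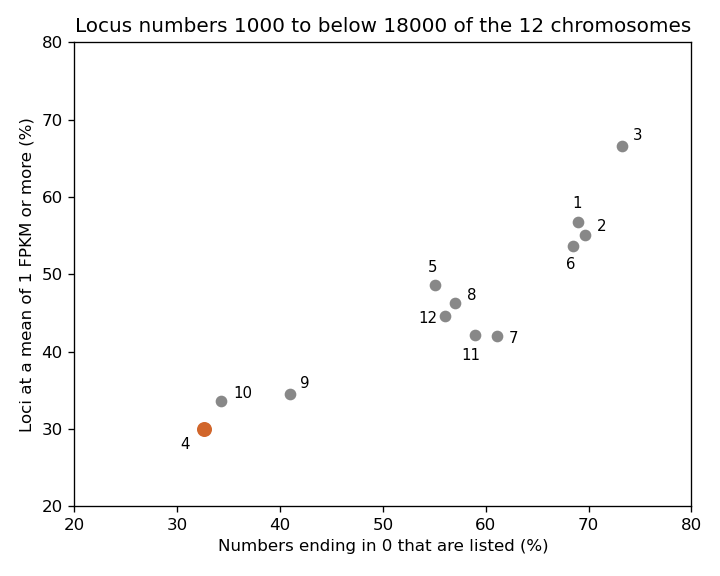
Percent of expressed loci against percent of numbers ending in 0 that are listed, for locus numbers 1000 to 18000 of each of the 12 chromosomes. Chromosome 4 (orange) lies lowest on both axes, next to chromosomes 10 and 9. Axes run from 20 to 80.

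Over the arm as a whole, the libraries were about as far apart as over all loci. With 1 library on each side no locus can be tested. Among the 194 expressed members, 17 were at least 2-fold apart on the scale of log2(FPKM + 1), 8.8%, against 6.75% of all expressed loci. Of these, 9 members (4.6%) were higher in library 1, against 3.49% of all expressed loci, and 8 (4.1%) were higher in library 2, against 3.26%. The members' shares lie near those of all loci. By position, 2 of the 57 expressed loci below 3000 were 2-fold apart and 15 of the 137 from 3000 upward (10.9%). The SD of the log2 ratio was 0.43 in the former and 0.70 in the latter, and 0.58 over all loci. Loci of the former stood at higher levels, and neither this difference nor the part of level in it was tested.

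The members furthest apart between libraries are given first among those averaging 5 FPKM or more. LOC_Os04g11040 reached 32.6 FPKM in library 1 against 4.62 FPKM in library 2 (log2 ratio -2.58). LOC_Os04g03050 had 10.2 and 1.94 FPKM (log2 ratio -1.92). LOC_Os04g15840 had 10.4 and 2.27 FPKM (log2 ratio -1.81), and LOC_Os04g02640 had 42.7 and 11.9 FPKM (log2 ratio -1.77). These 4 lie in different windows. Some members below that average, picked after their values were seen, were further apart than most of these 4. LOC_Os04g11050, the member next to LOC_Os04g11040, was at 9.77 FPKM in library 1 and 0.094 FPKM in library 2, and its log2 ratio of -3.30 was the lowest of the arm. The ratio was -2.71 for LOC_Os04g09390 and -2.52 for LOC_Os04g11195, which shares the window of LOC_Os04g11040. In the other direction, LOC_Os04g05050 had 3.40 and 13.7 FPKM (log2 ratio 1.75). LOC_Os04g10350 had 16.2 and 52.6 FPKM (log2 ratio 1.64). LOC_Os04g05650 had 9.64 and 28.3 FPKM (log2 ratio 1.46). LOC_Os04g17100, the highest locus of the last window, had 27.4 and 61.2 FPKM (log2 ratio 1.13). Named after their values were seen, LOC_Os04g02880 had 21.0 and 44.3 FPKM (log2 ratio 1.04). The member before LOC_Os04g17100, LOC_Os04g17084, had 18.1 and 38.0 FPKM (log2 ratio 1.03). LOC_Os04g05050 and LOC_Os04g05650 share a window.

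**Figure D5:**
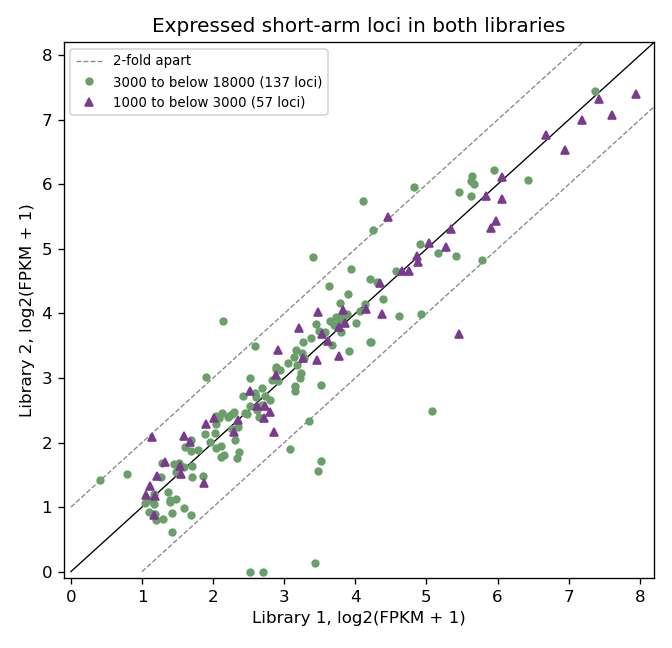
Level of the 194 expressed members in library 2 against library 1, as log2(FPKM + 1), with members below number 3000 as triangles and the others as circles. The solid line marks equal levels and the dashed lines a 2-fold difference. Most of the 17 members at or outside the dashed lines are circles.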

How the data were processed

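For each locus and library the authors deposited 1 FPKM value, per the file headers, made with Cufflinks, per the submitters' processing notes. Not given in the sources used here are its version, the aligner, the genome build, the annotation and any use of strand. FPKM is already divided by transcript length and depth, so read counts were not modelled, and the depth is unknown beyond the FPKM scale. Reads shared with repeated copies could be split or lost, which cannot be seen in these values.

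Loci were ordered by the number in their identifiers. Members and comparisons were chosen with earlier results of these data known. Expressed means averaging 1 FPKM or more. Windows with fewer than 10 loci were left out. The 11 left-out loci count only in totals over all loci or expressed loci of the genome. Ratios use log2(FPKM + 1). Named loci are the 12 with the highest mean, the highest of each window of 1000 numbers, the 4 at each end of the ratios among members averaging 5 FPKM or more, 2 on each side of number 18000, and the ends of the longest runs. The functions were tested on simulated data. Those had far less noise between libraries than seen here and no planted level near 1 FPKM, so the test checked the code only. Python 3.11.15, pandas 2.3.3, NumPy 2.4.6 and SciPy 1.17.1 were used.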

Additional observations from a re-analysis of the deposited data

How the results depend on the processing

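The gap in expressed loci between the arm and the rest of chromosome 4 (-24.1 percentage points on the mean FPKM) kept its direction under all alternatives but 1. Values follow for settings that moved a result by more than the spread between libraries. At thresholds of 0.1, 0.5, 5 and 10 FPKM, 42.3%, 35.0%, 17.8% and 11.9% of members were expressed, and at 0.1, 5 and 10 FPKM the gap was -26.6, -20.6 and -15.4. With libraries rescaled to a common sum, the share was 32.5% and the log2 gap -1.17 (as reported -1.03). The median of expressed members was 8.74 on the rescaled scale, which is not FPKM. That common sum lay above the FPKM sums over all loci, 670155 in library 1 and 651935 in library 2. Rescaling thus raised every value above 0, and the unchanged threshold and pseudocount of 1 were in effect lower. Rescaling by the median ratio did not move these results (29.9%, -1.03 and 6.76 FPKM). With both libraries at the threshold the share was 27.9%. Leaving out each library gave medians of 6.41 to 7.32 FPKM. A border at 16000 gave a gap of -21.6, a log2 gap of -0.97, a median of 6.17 FPKM and 6.35% of the summed FPKM, and a border at 20000 gave -25.2, -1.07 and 7.64%. The log2 gap was -1.83 with a pseudocount of 0.1 FPKM and -0.72 over loci above 0. Against the same numbers of the 11 other chromosomes the gap was -19.2.

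The following were chosen after seeing the data. Without numbers 1000 to 3000 the share was 25.7%, the gap -28.5, the log2 gap -1.24, the median 5.80 FPKM and the share of summed FPKM 3.51%. Without 16000 to 17000 these were 31.8%, -22.3, -0.99, 6.42 FPKM and 6.64%. Against loci 31000 and above the gap was -30.8 and the log2 gap -1.30. Against loci 18000 to 31000 the gap turned to 1.85. The settings tried for the number of members 2-fold apart were, in contrast, planned, and that number (17) lay between 12 and 22. No paired analysis was possible because both libraries belong to 1 group. The depth is unknown, which limits statements on loci below 1 FPKM.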

Other observations

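Zeros in a single library were unevenly split in the arm. Of the members above 0 in 1 library only, 37 were at 0 in library 2 and 6 were at 0 in library 1. In the rest of chromosome 4 the counts were 77 and 86, and over all loci 1173 and 1008. Of the 37 members, 18 were below 0.1 FPKM in library 1. The 2 with the highest level, picked after their values were seen, were LOC_Os04g09390 at 5.52 FPKM and LOC_Os04g11195 at 4.72 FPKM in library 1, both at 0 in library 2. The split was not tested.

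Members whose numbers do not end in 0 numbered 95, and 23 of them were expressed (24.2%), against 171 of the 551 whose numbers do (31.0%). In the rest of chromosome 4 the order was the opposite, with 62.5% of 184 and 53.5% of 2494. The window at 16000 holds 33 of the 95. Without that window 21 of 62 were expressed, 33.9%, so the low share rests on it.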
